A study of Bos taurus and Bos indicus with 3 samples.

Results

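The leukocyte transcriptome of Cholistani cattle, an indicine breed of Pakistan, was compared with that of Jersey cattle, a taurine dairy breed. The comparison takes in each gene model that had a value in both libraries and at least 10 FPKM in either of them, which are 13718 of the 25968 models in the table. FPKM divides the fragments of a model by its exon length and by the size of the library, so it measures the level of a gene per unit of its length. The minimum cut through a continuous range of levels. The members closest to it had 10.002 FPKM in the higher library, for a model named only by a protein accession, and 10.004 FPKM for SYT3. The closest models left out had 9.99954 FPKM, for a model without a name, and 9.99665 FPKM for STXBP6.

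Blood of 7 Jersey cows from a research station in Wisconsin and of 45 Cholistani cows from a farm in Punjab, Pakistan, was drawn from the tail vein and pooled in equal volumes within each breed before the leukocytes were spun down and the red cells lysed. Polyadenylated RNA was then sequenced as 1 library per breed. A library of 40 Holstein cows, made in the same way at another Wisconsin herd, is given beside them. The labels call the Holstein and Jersey animals Bos taurus and the Cholistani animals Bos indicus, and give no age, parity, health or season for any group. Breed, herd, the number of cows pooled and the transport of the Cholistani RNA in a dry storage matrix differed together and cannot be told apart. With 1 library per breed there is no spread to set a difference against. Every fold below describes these libraries, and no test was made.

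Blood leukocytes are a mixture of lymphocytes, monocytes and granulocytes with some platelets. They carry ready stores of receptors, and when stimulated they switch on immediate early transcription factors within minutes, and cytokines and chemokines soon after. Chemokines are small secreted proteins that draw leukocytes to a site through receptors on the cell surface. In a bulk sample a lower level of a gene can come from fewer cells of a type or from less of its RNA per cell, and these cannot be told apart.

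The libraries held the markers of their labelled tissue. The T cell receptor subunit CD3E had 2127 FPKM in Jersey, 2041 in Holstein and 6016 in Cholistani. CD79A, part of the B cell receptor, had 6189.5 FPKM in Jersey, 5281 in Holstein and 14273 in Cholistani. The granulocyte and monocyte protein S100A12 had 12184 FPKM in Jersey, 17413 in Holstein and 13418 in Cholistani, and the monocyte receptor CD14 had 237 FPKM in Jersey, 342 in Holstein and 398 in Cholistani. All these markers were well above the minimum in all 3 libraries, which shows their presence and not the amount of a cell type. CD79A had the largest fold of the 15 B cell markers described below, and CD3E lay above the median of its list. The median log2 fold of Cholistani over Jersey was -0.09 for the B cell markers and 0.47 for the 13 T cell markers.

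A difference is called here where the ratio of (FPKM + 1) was at least 2-fold. Of the 13718 members, 2359 (17.2%) were called higher in Cholistani than in Jersey and 1724 (12.6%) were called lower. Together these are 29.8% of the members. The other 9635 (70.2%) were less than 2-fold apart, and the median log2 fold was 0.17. The values of the Cholistani library summed to 1.51 times those of the Jersey library. When both were rescaled to equal sums, a log2 factor of 0.60, 1348 members (9.83%) were higher and 3489 (25.4%) lower, and the median turned to -0.42. Each list of genes below is therefore read against the medians of all members, 0.17 as deposited and -0.42 with equal sums. The median also depended on level. It was -0.08 in the lowest of 4 classes of mean expression and 0.47 in the highest, as deposited, so lists of abundant genes start from a higher median. Of the 6585 members with the name of 1 gene, 838 (12.7%) were called higher and 481 (7.30%) lower. Among the 5230 of them that were above 0 in both libraries and reached 50 FPKM in either, 34 were 8-fold or more higher in Cholistani and 5 were lower by as much, as deposited. With equal sums these counts were 20 and 12.

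**Figure D1:**
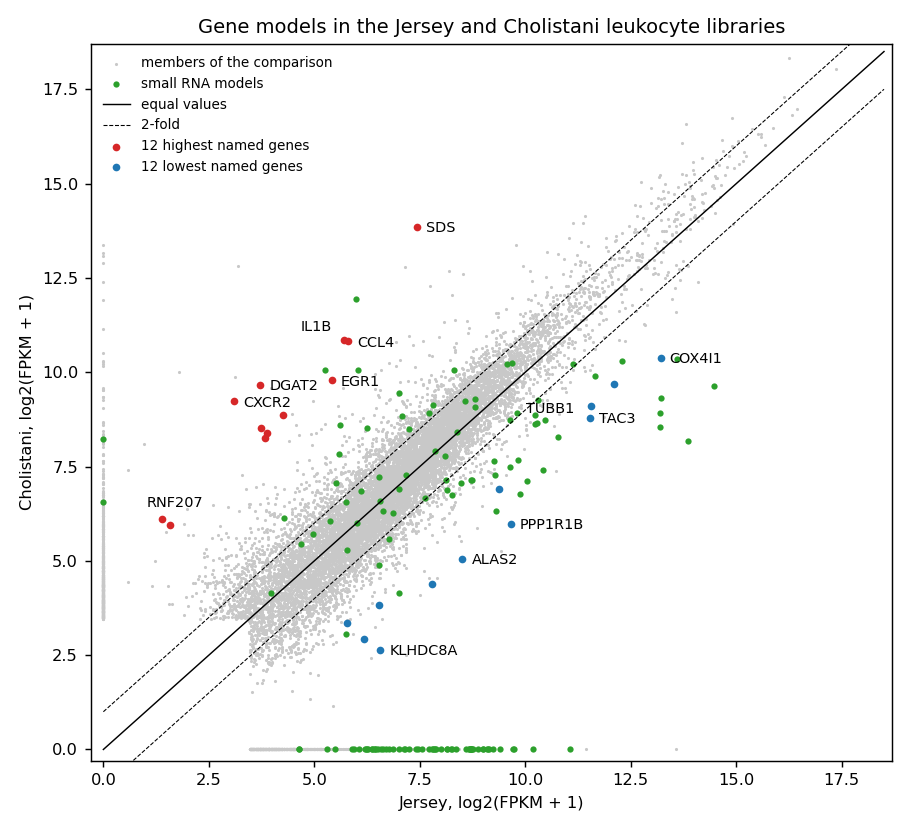
Each point is 1 of the 13718 members, with log2(FPKM + 1) in Jersey on the x axis and in Cholistani on the y axis; the solid line marks equal values and the dashed lines a 2-fold difference. The 12 highest named genes (red) reach from GPAT2 and RNF207 at low levels to SDS near 14 on the y axis, while many small RNA models (green) lie along the bottom, where they are listed at 0 in Cholistani.

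Among models with a gene name that reached 50 FPKM and were above 0 in both, the largest difference was that of SDS, the serine dehydratase that turns serine into pyruvate. It had 171 FPKM in Jersey, 809.7 in Holstein and 14764 in Cholistani, a log2 fold of 6.43 over Jersey and 5.83 with equal sums. Its model lies at chr17:64236615-64244768 of btau4.0, the assembly of all coordinates here. DGAT2, which makes the last step of triglyceride synthesis, had 12.1 FPKM in Jersey, 45.1 in Holstein and 808 in Cholistani (log2 fold 5.94). GPAT2, of the family that makes the first step, had 1.97 FPKM in Jersey, 1.57 in Holstein and 61.4 in Cholistani (log2 fold 4.39). Holstein was low beside Cholistani for all 3 genes, and SDS and DGAT2 had at least 3 times more in Holstein than in Jersey.

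Among the others of the 12 highest, several belong to the inflammatory response. CXCR2, the receptor for CXCL8 on neutrophils, had 7.62 FPKM in Jersey, 33.5 in Holstein and 598 in Cholistani (log2 fold 6.12). IL1B, the secreted form of interleukin 1, had 51.4 FPKM in Jersey, 89.3 in Holstein and 1851 in Cholistani (log2 fold 5.14). The chemokine CCL4 had 54.5 FPKM in Jersey, 85.3 in Holstein and 1811 in Cholistani (log2 fold 5.03). Cholistani stood far above both taurine libraries in each, and Jersey was the lowest. REG1, the entry name of the bovine chemokine regakine-1, had 12.2 FPKM in Jersey, 13.9 in Holstein and 366 in Cholistani (log2 fold 4.79). The immediate early factor EGR1 had 41.6 FPKM in Jersey, 23.3 in Holstein and 885 in Cholistani (log2 fold 4.38). RNF207 was different: it had 1.60 FPKM in Jersey, 43.03 in Holstein and 67.7 in Cholistani (log2 fold 4.72), so Holstein lay close to Cholistani and Jersey alone was low.

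The remaining 3 of the 12 were DDN1, PRSSL1 and MRPL57. DDN1, the entry name of the serine protease duodenase-1, had 18.1 FPKM in Jersey, 18.8 in Holstein and 467 in Cholistani (log2 fold 4.61). PRSSL1, a serine protease-like gene, had 13.7 FPKM in Jersey, 12.1 in Holstein and 332 in Cholistani (log2 fold 4.51). MRPL57, a protein of the mitochondrial ribosome, had 13.2 FPKM in Jersey, 2.25 in Holstein and 304 in Cholistani (log2 fold 4.42). PRSSL1 shares its listed span, chr7:42115902-42828000, with 35 other models, of which GZMM and THEG are also described below. Of the 27 models with that span that are members, 6 were higher by 2-fold and 0 lower.

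**Figure D2:**
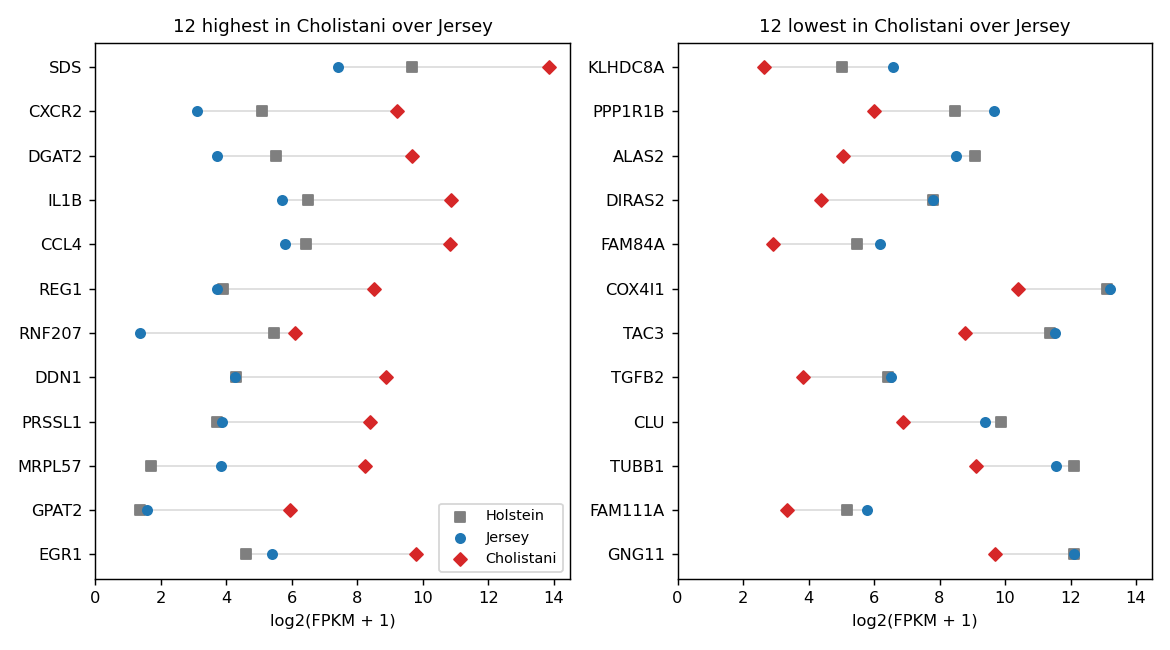
The 12 highest (left) and 12 lowest (right) named genes by fold, with log2(FPKM + 1) on the x axis and 1 symbol per library. Cholistani (red) lies to the right of both taurine libraries in all 12 genes on the left, where Holstein comes near it only for RNF207, and to the left of both in all 12 on the right.

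Of the chemokine list, 20 genes were found by name and 13 were members, and 7 were below the minimum in both libraries. Of the 13, 9 were called higher and 1 lower, against 17.2% and 12.6% of all members, with a median log2 fold of 3.49. Of the 9, 4 were listed at 0 in Jersey, so they entered through Cholistani alone and had to be called, and the count is not evidence by itself. With equal sums 7 higher and 3 lower passed 2-fold. The median was 2.89 with equal sums and 1.54 with a pseudocount of 10 FPKM, which shrinks low genes. CCL5, made by T cells and natural killer cells, had 876 FPKM in Jersey, 1562 in Holstein and 10663 in Cholistani (log2 fold 3.60). CCL3 had 108 FPKM in Jersey, 201 in Holstein and 1218 in Cholistani (log2 fold 3.49). CXCL8, the neutrophil chemokine that binds CXCR2, had 522 FPKM in Jersey, 341 in Holstein and 1068 in Cholistani (log2 fold 1.03). CXCL3, another ligand of that receptor, was listed at 0 in Jersey and had 16.9 FPKM in Holstein and 2259.5 in Cholistani.

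CCL8, CCL20 and CCL2, which draw monocytes or lymphocytes, were each listed at 0 in both taurine libraries and had 49.4, 34.4 and 13.6 FPKM in Cholistani. The chemokine with the opposite direction was the interferon-induced CXCL10, with 128 FPKM in Jersey, 182 in Holstein and 30.01 in Cholistani (log2 fold -2.05). CXCL6 had 58.4 FPKM in Jersey, 54.996 in Holstein and 31.7 in Cholistani, which was under 2-fold as deposited and past 2-fold lower with equal sums (-1.44). The ligands of CXCR2 lay on both sides, since CXCL3 and CXCL8 were called higher as deposited, the latter under 2-fold with equal sums (0.44), and CXCL6 and PPBP had values below those of Jersey.

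The CC chemokine genes lie side by side on chromosome 19. From CCL3 to CCL5, chr19:13740611-13977615, there were 11 members, of which 9 were higher in Cholistani and 0 lower. The shares over all members were 17.2% and 12.6%. CCL16 had 329 FPKM in Jersey, 427 in Holstein and 980.2 in Cholistani (log2 fold 1.57, or 0.97 with equal sums). The unnamed model from 13852347 also fell under 2-fold with equal sums (0.82). LOC616364, a model with a provisional name only, was listed at 0 in Jersey and had 326 FPKM in Cholistani. The unnamed model from 13936145 was also at 0 in Jersey and had 11.1 FPKM in Cholistani. LOC616364 and that model passed the minimum through Cholistani alone and had to be called. The model without a name that starts at 13907030 was the most abundant there, with 10059 FPKM in Jersey, 11249 in Holstein and 13625 in Cholistani (log2 fold 0.44). It was under 2-fold, so the high values of the neighbouring chemokines were not shared by each model of the cluster. This run of genes was chosen after its values were seen.

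The cytokine list had 17 members of 23 genes found, and 6 were below the minimum. Of the 17, 8 were called higher and 0 lower, with a median of 0.88, or 0.28 with equal sums. Of those called higher, 4 were listed at 0 in Jersey, and PTGS2 was under 10 FPKM there, so these entered through Cholistani alone and had to differ. TNF, the tumor necrosis factor, had 129.6 FPKM in Jersey, 131 in Holstein and 422 in Cholistani (log2 fold 1.70). Oncostatin M (OSM) had 14.53 FPKM in Jersey, 13.6 in Holstein and 73.03 in Cholistani (log2 fold 2.25). PTGS2, the inducible cyclooxygenase, had 5.60 FPKM in Jersey, 8.47 in Holstein and 50.2 in Cholistani (log2 fold 2.96). These were in the same direction as IL1B, at lower levels.

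IL1A, IL6 and IFNG were listed at 0 in both taurine libraries and had 85.98, 16.9 and 19.8 FPKM in Cholistani. IL10, a cytokine that restrains inflammation, was listed at 0 in Jersey and had 24.1 FPKM in Holstein and 89.3 in Cholistani. The most abundant cytokine of the list was TGFB1, with 1609.5 FPKM in Jersey, 1760.2 in Holstein and 2415 in Cholistani (log2 fold 0.58), and it was not 2-fold apart. IL1RN, which blocks the interleukin 1 receptor, had 560.5 FPKM in Jersey, 639.8 in Holstein and 1029.8 in Cholistani (log2 fold 0.88). IL1R1, the receptor itself, had 100.3 FPKM in Jersey, 137 in Holstein and 70.1 in Cholistani (log2 fold -0.51). So the ligand IL1B, above 0 in both libraries, differed far more than the antagonist IL1RN or the receptor IL1R1. IL1A passed the minimum through Cholistani alone and had to differ, so it adds nothing to this contrast.

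**Figure D3:**
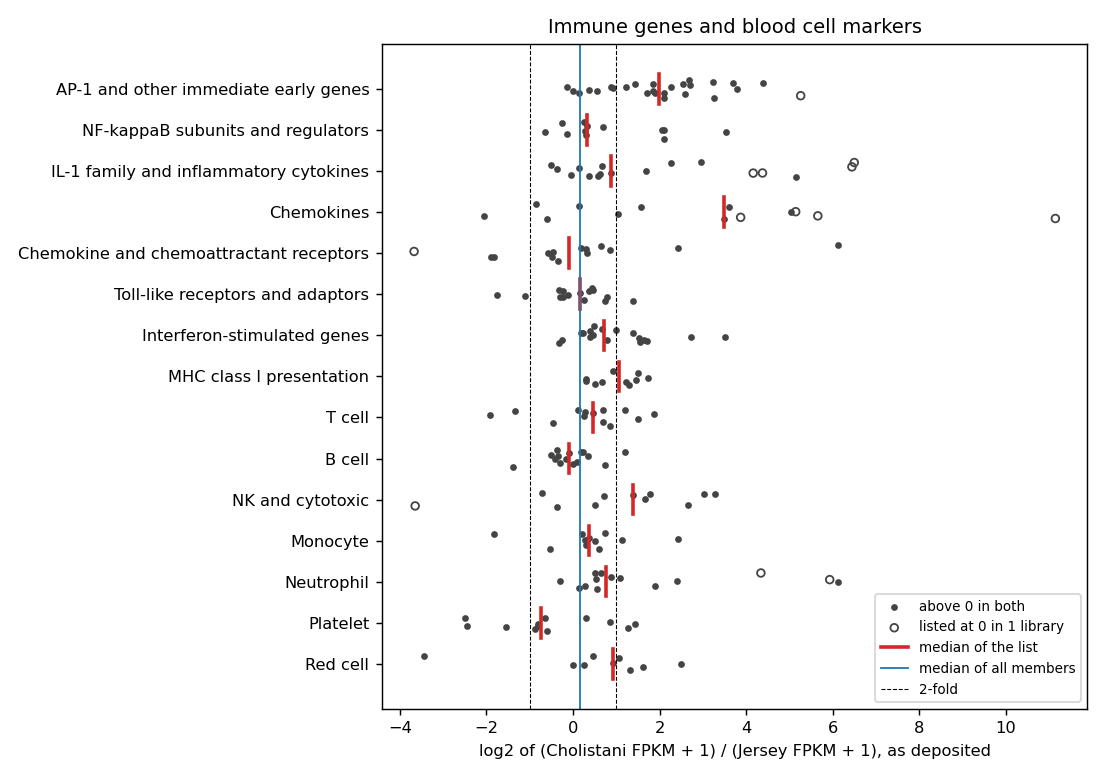
Each point is a gene of the list on its row, with the log2 fold of Cholistani over Jersey as deposited on the x axis; open points are genes listed at 0 in 1 library, red bars are list medians, and the blue line is the median of all members at 0.17. Immediate early genes and chemokines lie mostly beyond the 2-fold line on the right, chemoattractant receptors and B cell markers lie around the blue line, and the platelet markers have the lowest median at -0.73.

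Immediate early genes are switched on without new protein synthesis and include the AP-1 subunits. Of 28 found, 26 were members, of which 19 were called higher and 0 lower, against 17.2% and 12.6% of all members. The median was 1.99, and with equal sums it was 1.40 with 17 higher and 0 lower. JUNB, an AP-1 subunit, had 1469 FPKM in Jersey, 1024 in Holstein and 9367 in Cholistani (log2 fold 2.67). FOS, its partner, had 189 FPKM in Jersey, 103 in Holstein and 1820.3 in Cholistani (log2 fold 3.26). Jersey was above Holstein for both, and Cholistani was highest.

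DUSP2, a phosphatase that switches off MAP kinases in lymphocytes, had 305 FPKM in Jersey, 315 in Holstein and 4223 in Cholistani (log2 fold 3.79). ATF3, a stress-induced transcription factor, had 23.8 FPKM in Jersey, 23.7 in Holstein and 319 in Cholistani (log2 fold 3.69). ZFP36, which binds cytokine mRNA and promotes its decay, had 1138 FPKM in Jersey, 1053 in Holstein and 5468 in Cholistani (log2 fold 2.26). The stress proteins PPP1R15A and GADD45A had log2 folds of 3.22 and 2.70. DUSP4 was listed at 0 in both taurine libraries and had 37.3 FPKM in Cholistani. Members that differed little were MYC, with 737 FPKM in Jersey, 664 in Holstein and 740.4 in Cholistani (log2 fold 0.01), KLF6 (log2 fold 0.37) and FOSL2 (log2 fold 0.15).

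The NF-kappaB genes with high values in Cholistani were regulators of the factor. Of 12 members of that list, 4 were called higher and 0 lower. The list's median of 0.32 turned to -0.27 with equal sums, when 4 higher and 1 lower passed 2-fold. NFKBIZ, a nuclear IkappaB protein that is induced by interleukin 1, had 46.2 FPKM in Jersey, 49.7 in Holstein and 546 in Cholistani (log2 fold 3.53). BCL3, of the same family, had 295 FPKM in Jersey, 291 in Holstein and 1279 in Cholistani (log2 fold 2.11). TNFAIP3, the A20 protein that ends the signal, had 64.02 FPKM in Jersey, 76.9 in Holstein and 269.7 in Cholistani (log2 fold 2.06). NFKBID, the fourth, had a log2 fold of 2.11. The subunits RELB and REL had log2 folds of 0.69 and -0.66, under 2-fold as deposited, and REL passed 2-fold lower with equal sums (-1.25).

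The receptors of the chemokines lay near the median of all members. Of 14 chemoattractant receptors, 2 were called higher and 3 lower, beside 17.2% and 12.6% of all members. The median was -0.09, or -0.68 with equal sums, when 2 higher and 6 lower passed 2-fold. Beside CXCR2, the gene called higher was CXCR4, which holds leukocytes in the bone marrow, with 326 FPKM in Jersey, 339 in Holstein and 1763 in Cholistani (log2 fold 2.43). CCR2, the monocyte receptor for CCL2, had 316 FPKM in Jersey, 434 in Holstein and 88.5 in Cholistani (log2 fold -1.82). XCR1 was listed at 0 in Holstein and Cholistani and had 11.7 FPKM in Jersey. It passed the minimum through Jersey alone and had to be called, and CXCR2 passed it through Cholistani alone. CCR2 was thus lower in the library in which its ligand CCL2 was above 0.

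Of 15 Toll-like receptors and their adaptors, 1 was called higher and 2 lower. TLR4, the receptor for bacterial lipopolysaccharide, had 119 FPKM in Jersey, 129.5 in Holstein and 312 in Cholistani (log2 fold 1.38), and with equal sums it was under 2-fold (0.79). TLR10 had 194.9 FPKM in Jersey, 163.4 in Holstein and 57.4 in Cholistani (log2 fold -1.75). TLR8, an endosomal receptor for single-stranded RNA, had 172 FPKM in Jersey, 222 in Holstein and 78.7 in Cholistani (log2 fold -1.12). The shared adaptor MYD88 had 749 FPKM in Jersey, 855 in Holstein and 836 in Cholistani (log2 fold 0.16), and was not 2-fold apart.

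Interferon-stimulated genes numbered 18, of which 7 were called higher and 0 lower, and 4 were higher and 0 lower with equal sums. The median was 0.72, or 0.13 with equal sums. IFITM3, a membrane protein that blocks virus entry, had 2721 FPKM in Jersey, 2955 in Holstein and 18091 in Cholistani (log2 fold 2.73). ISG20, an exonuclease, had 85.1 FPKM in Jersey, 156 in Holstein and 984 in Cholistani (log2 fold 3.52). The transcription factor IRF1 had 1464 FPKM in Jersey, 1674 in Holstein and 4221 in Cholistani (log2 fold 1.53). MX2 and IFIH1, also interferon-stimulated, had log2 folds of 0.19 and 0.23, and ADAR had -0.32. The differences were thus held by some of the list.

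MHC class I molecules present peptides that the proteasome cuts. Of 10 genes of that route, 5 were called higher and 0 lower, and with equal sums 1 higher and 0 lower passed 2-fold. All 5 that were higher are parts of the immunoproteasome or its activator. PSMB8 had 4538 FPKM in Jersey, 4468 in Holstein and 12415 in Cholistani (log2 fold 1.45). PSMB9 had 2709 FPKM in Jersey, 2662 in Holstein and 7729 in Cholistani (log2 fold 1.51). PSME1, of the activator, had 1890.3 FPKM in Jersey, 1970.2 in Holstein and 6273 in Cholistani (log2 fold 1.73), and it alone stayed past 2-fold with equal sums (1.13).

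B2M, the light chain of class I molecules and among the most abundant genes of each library, had 81393 FPKM in Jersey, 82480.2 in Holstein and 116169 in Cholistani (log2 fold 0.51). The class I heavy chain genes are so alike that the table joins several in 1 model. The most abundant such model, at chr23:28483925-28659544, had 77462 FPKM in Jersey, 84948 in Holstein and 328475 in Cholistani (log2 fold 2.08). The level of any single heavy chain is uncertain, since alike genes share reads. Of the 24 subunits of the constitutive proteasome, 3 were called higher and 0 lower, with a median of 0.57 that turned to -0.03 with equal sums. PSMA7 had 1641 FPKM in Jersey, 1550.4 in Holstein and 3329.5 in Cholistani (log2 fold 1.02).

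Several granule genes of cytotoxic cells were far higher in Cholistani, and 1 of low level was listed at 0 there. Of 11 markers of natural killer and cytotoxic cells, 6 were called higher and 1 lower, with a median of 1.38, or 0.79 and 5 higher and 2 lower with equal sums. Granzyme B (GZMB), a protease that kills target cells, had 52.3 FPKM in Jersey, 42.3 in Holstein and 436 in Cholistani (log2 fold 3.04). Granzyme M (GZMM) had 46.9 FPKM in Jersey, 94.5 in Holstein and 461 in Cholistani (log2 fold 3.27). NKG7, a granule membrane protein, had 219 FPKM in Jersey, 275 in Holstein and 1386 in Cholistani (log2 fold 2.66). GZMK had 49.1 FPKM in Jersey, 46.3 in Holstein and 81.7 in Cholistani (log2 fold 0.72), under 2-fold. GZMA, the 1 called lower, was listed at 0 in Cholistani and had 11.5 FPKM in Jersey. It passed the minimum through Jersey alone and had to be called.

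The summed FPKM of these 11 markers was 1795 in Jersey, 2258 in Holstein and 5559 in Cholistani. NCR1, the activating receptor that defines natural killer cells, had 502 FPKM in Jersey, 699.7 in Holstein and 1594 in Cholistani (log2 fold 1.66), and TBX21, a transcription factor of these cells, had 451 FPKM in Jersey, 489 in Holstein and 647 in Cholistani (log2 fold 0.52). SH2D1B and CD226, signalling proteins of natural killer cells, had log2 folds of -0.72 and -0.38. The granule genes GZMB and GZMM thus lay above NCR1 in fold, and GZMK and GZMA below it.

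A group of protease genes lies on chromosome 21, chr21:34818853-34906704, and all 4 of its members were higher in Cholistani. Beside DDN1 they include a model that joins GZMH with a provisional gene, with 213 FPKM in Jersey, 184 in Holstein and 4992 in Cholistani (log2 fold 4.54). The model named LOC508858 had 142 FPKM in Jersey, 121 in Holstein and 7087 in Cholistani (log2 fold 5.63), and the model without a name on the same span had 14.8 FPKM in Jersey, 9.47 in Holstein and 771 in Cholistani (log2 fold 5.61). The taurine libraries were within 2-fold of each other in all 4. The cluster was chosen after its values were seen.

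The markers of the cell types give the makeup of each library as far as a bulk sample can. Of 13 T cell markers, 3 were called higher and 2 lower, with a median of 0.47. CD8A, of killer T cells, had 236 FPKM in Jersey, 255 in Holstein and 866 in Cholistani (log2 fold 1.87), and IL7R, a receptor of resting T cells, had 308 FPKM in Jersey, 360.4 in Holstein and 81.4 in Cholistani (log2 fold -1.91). WC11, a marker of the gamma delta T cells of ruminants, had 159 FPKM in Jersey, 33.4 in Holstein and 62.3 in Cholistani (log2 fold -1.33), and Jersey stood above both other libraries. The summed FPKM of the 13 markers was 7462 in Jersey and 13358 in Cholistani.

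Of 15 B cell markers, 1 was called higher and 1 lower, with a median of -0.09, or -0.69 with equal sums. CD79A was the one that was higher. PAX5, the transcription factor that sets B cell identity, had 381 FPKM in Jersey, 296 in Holstein and 145 in Cholistani (log2 fold -1.38). The markers of 1 cell type thus lay on both sides.

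Of the 14 neutrophil markers that were members, 6 were called higher and 0 lower, beside 17.2% and 12.6% of all members. The median was 0.77, or 0.17 with equal sums, when 5 higher and 0 lower passed 2-fold. Of the 6, 2 were listed at 0 in Jersey and had to be called, and CXCR2 was under 10 FPKM there. These entered through Cholistani alone, so the count is not evidence by itself. CSF3R, the receptor for the growth factor of granulocytes, had 532 FPKM in Jersey, 657 in Holstein and 1976 in Cholistani (log2 fold 1.89). NCF1, of the oxidase that makes superoxide, had 396 FPKM in Jersey, 415 in Holstein and 2092 in Cholistani (log2 fold 2.40). ALPL, the alkaline phosphatase of neutrophils, was listed at 0 in Jersey and had 9.998 FPKM in Holstein and 59.95 in Cholistani. The abundant S100A8, S100A9 and S100A12 had log2 folds of -0.29, 0.28 and 0.14, so the neutrophil list was high only in part. The 6 other markers found by name, among them CTSG and LTF of the granules, were below the minimum.

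Of 11 monocyte markers, 2 were called higher and 1 lower, with a median of 0.36, or -0.22 with equal sums. CD33, a sialic acid binding receptor of myeloid cells, had 52.4 FPKM in Jersey, 75.7 in Holstein and 287 in Cholistani (log2 fold 2.43). CD163, a scavenger receptor for hemoglobin, had 192 FPKM in Jersey, 329 in Holstein and 292 in Cholistani (log2 fold 0.60). Jersey had the lowest value of the 3 libraries for CD14, CD163, CX3CR1 and SIRPA. The marker called lower, CCR2, went the other way (log2 fold -1.82), with Cholistani lowest. The eosinophil and basophil list had 3 members, of which PRG3 was listed at 0 in Holstein and Cholistani and had 33.1 FPKM in Jersey.

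Platelet markers had the lowest median of the 38 lists. Of 12 members, 2 were called higher and 3 lower, with a median of -0.73, and with equal sums 0 higher and 8 lower passed 2-fold. TUBB1, the beta tubulin of platelets, had 2997 FPKM in Jersey, 4430.1 in Holstein and 551 in Cholistani (log2 fold -2.44). CLU, a secreted chaperone that platelets carry, had 668 FPKM in Jersey, 941 in Holstein and 118 in Cholistani (log2 fold -2.49). GNG11, a G protein subunit, has 2 models. The more abundant had 5293 FPKM in Jersey and 1815 in Cholistani (log2 fold -1.54), and the other had 4393 and 829 (log2 fold -2.40).

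The platelet chemokine PPBP had 939 FPKM in Jersey, 821 in Holstein and 621 in Cholistani (log2 fold -0.60), and F13A1, a clotting factor subunit, had 3118 FPKM in Jersey, 4417 in Holstein and 1775 in Cholistani (log2 fold -0.81). THBS1, which platelets and monocytes release, and NRGN went the other way, with log2 folds of 1.43 and 1.28. The summed FPKM of the 12 markers was 14077 in Jersey, 16935 in Holstein and 6219.5 in Cholistani. Their part in the other differences was not tested.

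Red cell markers split. ALAS2, which begins heme synthesis in red cell precursors, had 363 FPKM in Jersey, 536 in Holstein and 32.3 in Cholistani (log2 fold -3.45). The alpha globin model HBA had 11.5 FPKM in Jersey and 69.3 in Cholistani (log2 fold 2.49), with Holstein listed at 0. BPGM and CA2, enzymes of red cells, had log2 folds of 1.61 and 1.33 at 38.5 and 56.1 FPKM in Cholistani. Of 9 members, 4 were called higher and 1 lower, and 5 others, AHSP and CA1 among them, were below the minimum in both libraries. Globin genes are alike in sequence, so the value of any single one is uncertain.

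Nuclear genes of the respiratory chain had medians above that of all members, and many of them are abundant. Members in the highest of 4 classes of mean expression had a median of 0.47, or -0.12 with equal sums, with 18.05% higher and 3.64% lower as deposited. Of 32 nuclear subunits of complex I, 11 were called higher and 1 lower, with a median of 0.74, or 0.14 with equal sums, when 1 was higher and 3 were lower. NDUFB2 had 388 FPKM in Jersey, 429 in Holstein and 1243 in Cholistani (log2 fold 1.68), and NDUFC1 had 160.1 FPKM in Jersey, 130.1 in Holstein and 56.7 in Cholistani (log2 fold -1.48). Of 10 subunits of complexes II and III, 4 were called higher and 0 lower, all under 2-fold with equal sums. Of 16 ATP synthase genes, 3 were called higher and 0 lower, with a median of 0.70. CYC1, a cytochrome of complex III, had 786 FPKM in Jersey, 771 in Holstein and 1689 in Cholistani (log2 fold 1.10).

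Cytochrome c oxidase, the last complex of the chain, held the lowest subunits of the chain, COX4I1 and COX6C. Of 13 members, 5 were called higher and 2 lower, with a median of 0.91. COX5B had 1564 FPKM in Jersey, 1571 in Holstein and 4876 in Cholistani (log2 fold 1.64). COX6C had 1560.0 FPKM in Jersey, 1111 in Holstein and 542 in Cholistani (log2 fold -1.52). COX4I1, the largest nuclear subunit, had 9459.9 FPKM in Jersey, 8929.7 in Holstein and 1338 in Cholistani (log2 fold -2.82).

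COX4I1 shares its listed span, chr18:10884895-11063607, with the models of GINS2 and EMC8. GINS2 had 31.8 FPKM in Jersey, 39.5 in Holstein and 137 in Cholistani and EMC8 had 252 FPKM in Jersey, 254 in Holstein and 362 in Cholistani. On a span where COX4I1 was lower, GINS2 was thus called higher, and EMC8 was under 2-fold (0.52, or -0.08 with equal sums). Of 8 genes of the mitochondrial genome, 1 was called higher and 0 lower. The 1 gene was ND3, a subunit of complex I, with 71815 FPKM in Jersey, 71009 in Holstein and 162084 in Cholistani (log2 fold 1.17), and COX1 had 88848 FPKM in Jersey, 79333 in Holstein and 129900 in Cholistani (log2 fold 0.55). ND3 passed the 2-fold mark as deposited only, since it had 0.58 with equal sums.

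The list of mitochondrial ribosomal proteins names MRPL57, given above with a log2 fold of 4.42. Its model stands under another entry name and was not matched, so MRPL57 is missing from the counts here. Of the 64 members that were matched, 10 were called higher and 1 lower, with a median of 0.67, or 0.07 with equal sums. MRPS25 had 229 FPKM in Jersey, 231 in Holstein and 898 in Cholistani (log2 fold 1.96), and MRPS17 had 250.3 FPKM in Jersey, 241 in Holstein and 116 in Cholistani (log2 fold -1.10). Of 70 cytosolic ribosomal proteins, 11 (15.7%) were called higher and 5 (7.14%) lower, beside 17.2% and 12.6% of all members. In the highest of 4 classes of mean expression the shares were 18.05% and 3.64%. The median of the cytosolic ribosomal proteins, 0.45, turned to -0.15 with equal sums, when 3 higher and 12 lower passed 2-fold.

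Ribosomal protein genes lay on both sides. RPL23A had 2098 FPKM in Jersey, 2163 in Holstein and 12158 in Cholistani (log2 fold 2.53). RPL37 had 11311 FPKM in Jersey, 9244 in Holstein and 3895 in Cholistani (log2 fold -1.54), and RPL5 had 4773 FPKM in Jersey, 4071 in Holstein and 1852 in Cholistani (log2 fold -1.37). RPS29, the most abundant, had a log2 fold of 0.60. These genes have many near-identical copies in the genome, so their values depend on how reads with several locations were counted. Of 26 translation factors, 4 were called higher and 1 lower. EEF1A1, which carries tRNA to the ribosome, had 10536 FPKM in Jersey, 10731 in Holstein and 6129 in Cholistani (log2 fold -0.78), and EIF1 had 2976 FPKM in Jersey, 2759 in Holstein and 6836 in Cholistani (log2 fold 1.20).

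Few genes of the other metabolic and stress lists were called. The medians were 0.47 for heat shock proteins and chaperones and 0.52 for antioxidant genes, and both were negative with equal sums (-0.13 and -0.08). Of 28 heat shock proteins and chaperones, 0 were 2-fold higher and 0 lower, as deposited and with equal sums. HSPA8 had 4429.9 FPKM in Jersey, 4485 in Holstein and 7083 in Cholistani (log2 fold 0.68), and the inducible HSPA1A had 748 FPKM in Jersey, 711 in Holstein and 648 in Cholistani (log2 fold -0.21). Of 20 antioxidant genes, 0 were called higher and 1 lower. That gene was SRXN1, which repairs peroxiredoxins, with 419 FPKM in Jersey, 744 in Holstein and 133 in Cholistani (log2 fold -1.65). Of 10 hypoxia genes, 1 was called higher and 0 lower, and HIF1A had 424 FPKM in Jersey, 432 in Holstein and 295 in Cholistani (log2 fold -0.52).

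The list of triglyceride and cholesterol metabolism holds DGAT2 but not GPAT2, and its 12 other members were under 2-fold as deposited. LPIN1, which makes the diglyceride that DGAT2 uses, had 27.2 FPKM in Jersey, 17.1 in Holstein and 13.1 in Cholistani, just under 2-fold. SREBF2, the regulator of cholesterol synthesis, had 711 FPKM in Jersey, 725 in Holstein and 1194 in Cholistani (log2 fold 0.75). Of 16 glycolytic genes, 2 were called higher and 1 lower, and the glucose transporter SLC2A3 had 665 FPKM in Jersey, 732 in Holstein and 1602 in Cholistani (log2 fold 1.27). The medians were 0.08 for triglyceride and cholesterol metabolism, 0.55 for glycolysis and 0.07 for the hypoxia genes, and all 3 were negative with equal sums.

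**Figure D4:**
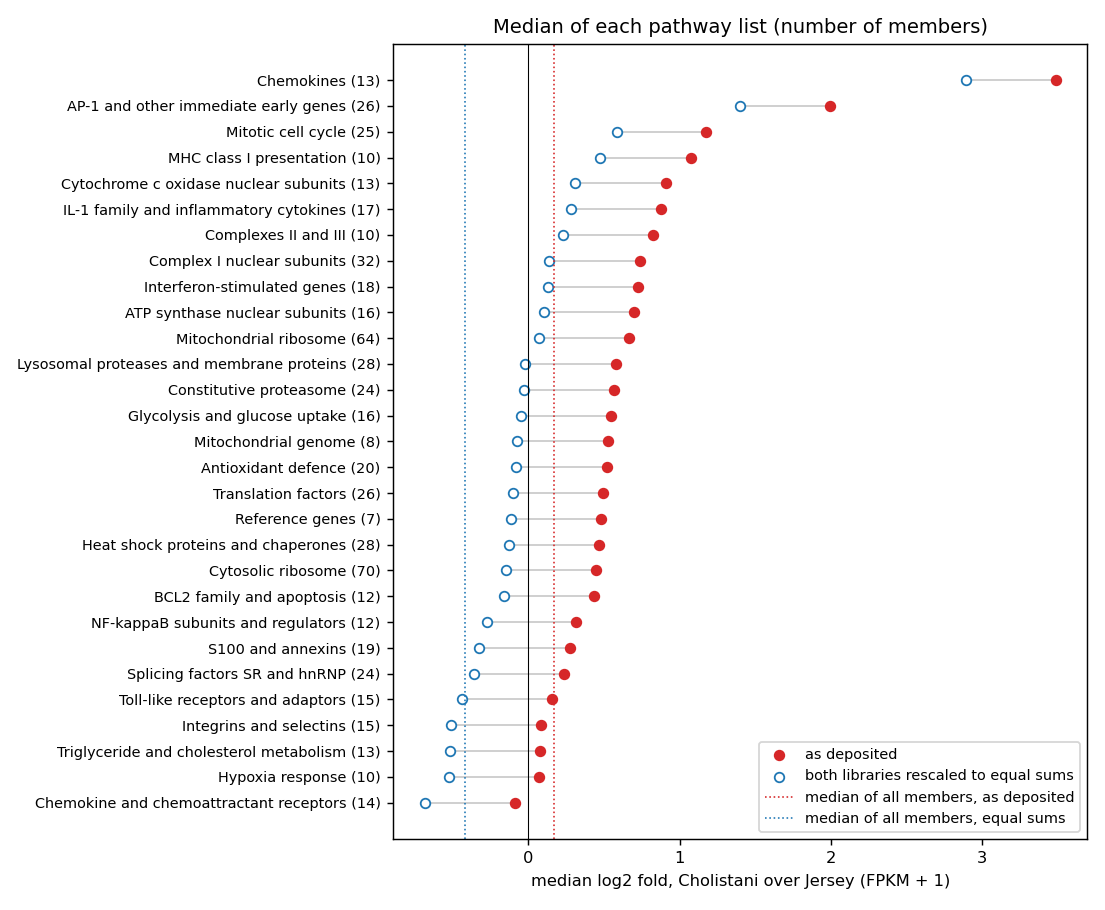
Median log2 fold of each pathway list, without the genes the study names, as deposited (filled) and after both libraries were rescaled to equal sums (open); dotted lines mark the medians of all members at 0.17 and -0.42. Among the lists shown, chemokines, immediate early genes, the mitotic cell cycle and MHC class I presentation lie farthest to the right on both scales, and most other lists change sign between the scales.

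Genes of cell division were another list with a median above that of all members on both scales. Of 25 mitotic genes, 15 were called higher and 0 lower, beside 17.2% and 12.6% of all members, with a median of 1.17. With equal sums the median was 0.59, and 5 higher and 0 lower passed 2-fold, beside 9.83% and 25.4% of all members. UBE2C, which helps to end mitosis, had 86.5 FPKM in Jersey, 106 in Holstein and 357 in Cholistani (log2 fold 2.03). PLK1, a mitotic kinase, had 69.8 FPKM in Jersey, 79.03 in Holstein and 216 in Cholistani (log2 fold 1.62). CENPE, a kinetochore motor, had 4.24 FPKM in Jersey, 19.1 in Holstein and 33.6 in Cholistani (log2 fold 2.72), with Jersey lowest. MCM2, which opens the DNA for replication, had 125 FPKM in Jersey, 160.2 in Holstein and 337 in Cholistani (log2 fold 1.43), while CCNB1 and CCNE1 had -0.11 and 0.06.

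Of 24 splicing factors, 4 were called higher and 0 lower as deposited, with a median of 0.24 that turned to -0.36 with equal sums. SNRPG had 684 FPKM in Jersey, 655 in Holstein and 1979 in Cholistani (log2 fold 1.53), and SRSF1 had 987 FPKM in Jersey, 858 in Holstein and 632 in Cholistani (log2 fold -0.64). Of 28 lysosomal genes, 5 were called higher and 0 lower. Cystatin C (CST3), which blocks lysosomal proteases, had 2325 FPKM in Jersey, 2639 in Holstein and 7473 in Cholistani (log2 fold 1.68), and the proton pump subunit ATP6V0C had 2149.6 FPKM in Jersey, 2251 in Holstein and 6542 in Cholistani (log2 fold 1.61). Of 12 genes of apoptosis, 2 were called higher and 1 lower. The adaptor FADD had 303 FPKM in Jersey, 288 in Holstein and 922 in Cholistani (log2 fold 1.60), BCL2A1, which protects leukocytes from death, had 506 FPKM in Jersey, 616 in Holstein and 1148 in Cholistani (log2 fold 1.18), and APAF1 of the apoptosome had 33.5 FPKM in Jersey, 42.3 in Holstein and 14.1 in Cholistani (log2 fold -1.19).

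Of 15 integrins and other adhesion molecules, 3 were called higher and 1 lower. ICAM1, which cytokines induce on many cells, had 23.2 FPKM in Jersey, 22.7 in Holstein and 168 in Cholistani (log2 fold 2.81). ITGB2, the shared chain of the leukocyte integrins, had 2698 FPKM in Jersey, 3143 in Holstein and 3525 in Cholistani (log2 fold 0.39), and was not 2-fold apart. Of 19 S100 and annexin genes, 5 were called higher and 0 lower, beside 17.2% and 12.6% of all members. The median was 0.27, or -0.32 with equal sums, when 3 higher and 2 lower passed 2-fold. Of the 5, 3 were listed at 0 in Jersey, so they entered through Cholistani alone and had to be called. S100A2 and S100A5, near each other on chromosome 3, were listed at 0 in both taurine libraries and had 82.8 and 109.6 FPKM in Cholistani. Their abundant neighbour S100A4 had 13198 FPKM in Jersey, 15093 in Holstein and 18345 in Cholistani (log2 fold 0.47).

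Reference genes, which are often taken as stable, differed among themselves. Of 7, 1 was called higher and 0 lower, with a median of 0.48 that turned to -0.12 with equal sums. GAPDH had 1119.8 FPKM in Jersey, 1034 in Holstein and 1509.9 in Cholistani (log2 fold 0.43). PPIB had 3875 FPKM in Jersey, 3719.9 in Holstein and 10261 in Cholistani (log2 fold 1.40), and YWHAZ had 286 FPKM in Jersey, 323 in Holstein and 182 in Cholistani (log2 fold -0.65). The 7 genes thus spanned the values from YWHAZ to PPIB.

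On the lower side, 6 of the 12 genes with the widest differences are in none of the lists. KLHDC8A had 93.8 FPKM in Jersey, 31.7 in Holstein and 5.23 in Cholistani (log2 fold -3.93). PPP1R1B, an inhibitor of protein phosphatase 1, had 803 FPKM in Jersey, 357 in Holstein and 62.5 in Cholistani (log2 fold -3.66). The Ras-like GTPase DIRAS2 had 220.4 FPKM in Jersey, 220.2 in Holstein and 19.8 in Cholistani (log2 fold -3.41). For KLHDC8A and PPP1R1B the Jersey value was also above that of Holstein, by more than 2-fold, and for DIRAS2 the taurine values were nearly equal.

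TAC3, the precursor of neurokinin B, had 2953 FPKM in Jersey, 2677 in Holstein and 442 in Cholistani (log2 fold -2.74). TGFB2, a growth factor that restrains many cells, had 91.2 FPKM in Jersey, 84.3 in Holstein and 13.1 in Cholistani (log2 fold -2.71). FAM84A and FAM111A had 71.5, 43.2 and 6.58 and 53.9, 35.2 and 9.13 FPKM in Jersey, Holstein and Cholistani (-3.26 and -2.44). The 12 highest and the 12 lowest genes all kept their direction and stayed past 2-fold with equal sums.

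The study names 11 of the members, chosen on these same samples, so their directions are not independent evidence. Of the 11, 7 were called higher and 2 lower. JUND, an AP-1 subunit, had 1064 FPKM in Jersey, 1026 in Holstein and 3943 in Cholistani (log2 fold 1.89). PAK1IP1 had 149 FPKM in Jersey, 159 in Holstein and 186 in Cholistani (log2 fold 0.31), and the others are described above.

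Some named genes were listed at 0 in 1 of the libraries, for which no fold can be given. There were 89 named members listed at 0 in Jersey and 76 listed at 0 in Cholistani. KRT17, a keratin, THEG, a testis gene, HBEGF, a growth factor of the EGF family, and ZFYVE28 were listed at 0 in both taurine libraries. They had 411, 135, 109 and 105 FPKM in Cholistani. In the other direction, ADAM11 had 69.6 FPKM in Jersey and 28.2 in Holstein, and the antibody-related gene IGIP 46.4 and 47.3, with both listed at 0 in Cholistani. DYNLRB2, a dynein light chain, had 44.3 FPKM in Jersey and 33.2 in Holstein and was also listed at 0 in Cholistani.

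Zinc finger genes, most of which encode DNA-binding repressors, were lower by median than all members, most of all at low levels. Of 143 models with a ZNF name, 113 were members, and 9 of these were called higher and 39 (34.5%) lower, against 12.6% of all members. The median was -0.62, or -1.21 with equal sums, where 65 were lower. With no minimum, 94 of the 122 above 0 in either library were lower in Cholistani by any amount and 28 were higher.

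Most of these genes are expressed at low levels. Among the 52 that reached 50 FPKM in either library, 9 were 2-fold higher and 5 lower, with a median of -0.11, beside 0.23 for all members at that level. As deposited, the shares called, 17.3% and 9.62%, stood near the 14.1% and 6.89% of all members at that level. With equal sums 1 of the 52 was higher and 19 were lower, and their median was -0.70. All 9537 members at that level then had 512 higher and 1857 lower, and a median of -0.36. Named members whose mean level lay in the middle 50% of that of the zinc finger genes, 18.8 to 89.3 FPKM, had a median of -0.07, with 9.92% higher and 11.5% lower. ZNF24 had 132 FPKM in Jersey, 123 in Holstein and 46.7 in Cholistani (log2 fold -1.48), ZNF518A had 54.5 FPKM in Jersey, 52.2 in Holstein and 18.1 in Cholistani (log2 fold -1.54) and ZNF865 had 65.5 FPKM in Jersey and 76.05 in Holstein and was listed at 0 in Cholistani. ZNF683, known as Hobit in cytotoxic lymphocytes, went the other way with 100.1 FPKM in Jersey, 81.8 in Holstein and 267 in Cholistani (log2 fold 1.41), as did ZNF524 (log2 fold 1.73). Apart from ZNF865, these examples, and the family, were picked with their values in view.

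Among the kinds of model name, small non-coding RNA had the largest share on the lower side. The table has 2912 models named as such, of which 139 were above 0 in Jersey or Cholistani and 136 were members. Like the histones below, the group was picked with its values in view. Of the 136, 93 (68.4%) were at least 2-fold lower in Cholistani and 16 (11.8%) higher, beside 12.6% and 17.2% of all members. A model that passed the minimum through 1 library alone had to differ, so these counts are not evidence by themselves. Over all 2912, the summed FPKM was 133145 in Jersey, 28358 in Holstein and 30425 in Cholistani, and 136, 91 and 75 models were above 0. The Jersey library thus stood apart from both others, and Cholistani and Holstein were close in sum.

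The U3 RNA, which guides the cutting of ribosomal RNA, was the most abundant. Its highest model, at chr19:8734352-8883076, had 22851 FPKM in Jersey, 1599.7 in Holstein and 791 in Cholistani (log2 fold -4.85). Of 11 U3 models, 8 were lower and 2 higher, with class medians of 3237, 382 and 456.3 FPKM in Jersey, Holstein and Cholistani. The box H/ACA RNAs (SNORA), which guide pseudouridylation, had 36 members, of which 31 were lower and 24 listed at 0 in Cholistani.

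The 11 box C/D RNAs (SNORD), which guide methylation, had 9 lower. The RNAs of the spliceosome differed by class. U1 had 7 higher and 5 lower of 16, and all 9 models of U4, U5 and U6 were lower. These RNAs have no poly(A) tail as a rule and are shorter than most mRNA. Many are repeated in the genome, and their FPKM is uncertain.

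Histone mRNA of the replication-dependent kind also lacks a poly(A) tail as a rule. Of 30 histone models on chromosome 23, 20 were at least 2-fold higher in Jersey than in Holstein. Against Jersey, 5 were higher in Cholistani and 5 lower, and the median log2 fold was -0.01. The class median was 49.5 FPKM in Jersey, 19.6 in Holstein and 48.3 in Cholistani. The minimum was set on Jersey and Cholistani only, so a low Holstein value was not filtered in the same way. HIST1H2AJ, for instance, had 36.1 FPKM in Jersey and 60.9 in Cholistani, with Holstein listed at 0. One H4 model on chromosome 23 had 118 FPKM in Jersey and 44.1 in Holstein and was listed at 0 in Cholistani. Histone genes are near-identical copies, and their values are uncertain for that reason.

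**Figure D5:**
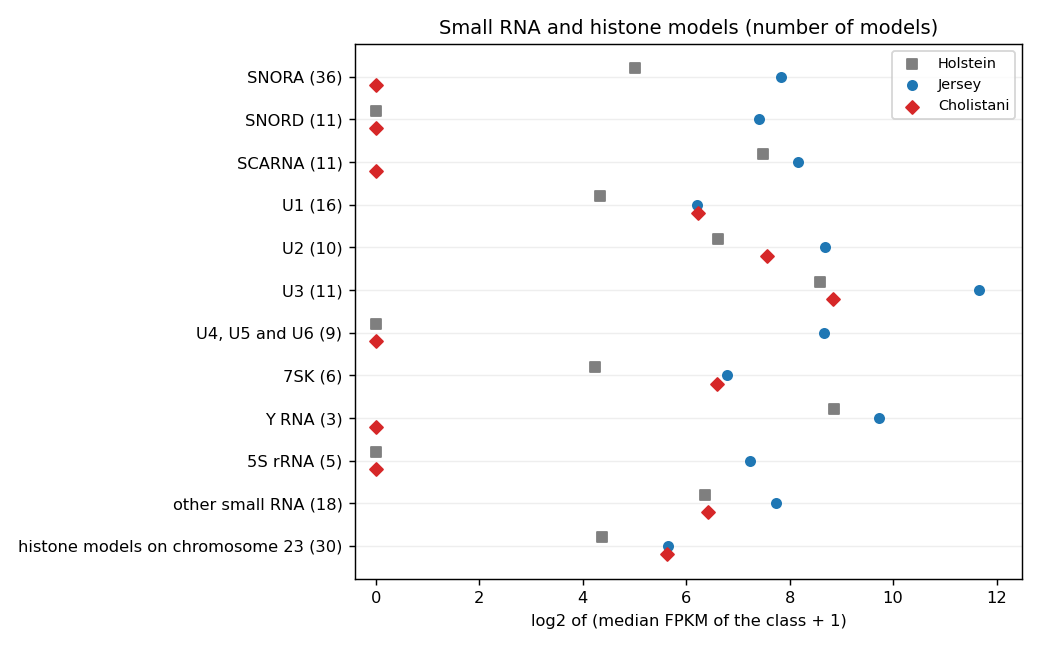
Median FPKM of each class of small RNA models, and of histone models on chromosome 23, as log2(median + 1) on the x axis, with 1 symbol per library. Jersey lies to the right of Holstein in all 12 rows, and Cholistani is at 0 for SNORA, SNORD, SCARNA, U4 to U6, Y RNA and 5S rRNA, but beside Jersey for U1, 7SK and the histones.

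For several named genes Jersey, not Cholistani, stood away from Holstein. Against Holstein, 19.9% of 13530 members chosen in the same way were higher in Cholistani and 12.2% lower. That comparison shares the Cholistani library with this one, so beyond counts only the values of named genes are given side by side. MORN4 had 5.75 FPKM in Jersey, 30.5 in Holstein and 59.3 in Cholistani (log2 fold 3.16 over Jersey). KCNE3, a subunit of potassium channels, was listed at 0 in Jersey and had 61.05 FPKM in Holstein and 49.96 in Cholistani. XRCC3, which acts in the repair of DNA breaks, had 16.6 FPKM in Jersey, 87.7 in Holstein and 72.5 in Cholistani (log2 fold 2.06). Complement factor B (CFB) had 49.03 FPKM in Jersey, 141 in Holstein and 218 in Cholistani (log2 fold 2.13), and CDA, cytidine deaminase, had 13.6 FPKM in Jersey, 45.4 in Holstein and 53.2 in Cholistani (log2 fold 1.89). For each of these, the value of Holstein was within 2-fold of that of Cholistani. The genes were taken from those at least 2-fold from Cholistani in Jersey or in Holstein, but not in both. Their closeness to Holstein thus follows from the choice. Of 5326 named members with at least 50 FPKM in the highest library, Cholistani was 2-fold from Jersey only in 169. It was 2-fold from Holstein only in 376 and from both in 728.

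For PPM1H and AQP9, Holstein stood apart from both other libraries. The phosphatase PPM1H had 69.7 FPKM in Jersey, 203 in Holstein and 90.5 in Cholistani, and AQP9, a water and glycerol channel of leukocytes, had 22.3 FPKM in Jersey, 62.7 in Holstein and 28.7 in Cholistani. Cholistani was at least 2-fold below Holstein in both and less than 2-fold from Jersey. PPM1H and AQP9 came from the same choice of genes, so this is not a separate result.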

How the data were processed

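The blood pools (40 Holstein, 7 Jersey and 45 Cholistani cows) gave leukocytes, and their poly(A) RNA was sequenced in a single library for each. Per the submitters' processing notes, the authors used TopHat 1.0.14, Bowtie 0.12.7 and Cufflinks 0.9.3, and they mapped the read pairs on the btau4.0 assembly. The deposited values are FPKM per gene model, to which the authors applied upper-quartile normalization and a correction of sequence bias. The number of fragments behind each value is unknown in this table, so intervals are not given, and low values are less precise than high ones.

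Listed starts were read as counting from 0, and 1 was added to them. The Jersey and Holstein values of 5 models were missing, and these models have no fold. Models were compared by log2 of (Cholistani FPKM + 1)/(Jersey FPKM + 1), which understates the difference of low genes, and called at 2-fold, with no test. Both libraries were also rescaled to equal sums, to equal sums without the 100 most abundant models of either, and to an equal 75th percentile of models above 0 in both. Other alternatives were centring on the median, pseudocounts of 0.1 and 10 FPKM, a minimum of 50 FPKM or none, a minimum in both libraries, named models only, and for lists the sum of all models of a name. Leaving out small RNA models was an alternative chosen after seeing the data.

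The comparison, its gene lists and the rule for named genes were chosen with earlier results of these data known. Of 1116 entries in 38 lists, 749 were found by symbol or protein entry name, and 36 of these stood on several models, of which the most abundant was taken. Named genes were the 12 highest and 12 lowest that reached 50 FPKM and were above 0 in both, the 6 most abundant listed at 0 in either library, from each list up to 3 past 2-fold on each side and the 2 most abundant, the genes of the study, 8 in each direction that differed between Jersey and Holstein, and the 5 most abundant of each library. The genes that differed between Jersey and Holstein also had to be at least 2-fold from Cholistani in either library but not in both. Only part of the named genes is printed, and other genes in the text are examples picked with their values in view. A planned search of promoters for motifs was not run, since no promoter sequence was used here. The counts and scalings were tested on simulated data. Python 3.11.15, numpy 2.4.6, pandas 2.3.3 and matplotlib 3.10.9 were used.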

Additional observations from a re-analysis of the deposited data

Results flagged for a closer look

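The 5 models with a missing value in Jersey and Holstein include 2 with a value in Cholistani. All 5 were left out of every fold above. The model named BPT1, at chr13:74553707-75069211 of btau4.0, had 2627 FPKM in Cholistani. A model named only by a protein accession, with the same listed span, had 4714 FPKM. Both were singled out because they carry signal outside the comparison. With no taurine value beside them, they give no fold.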

How the results depend on the processing

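Rescaling changed the balance of the calls. As deposited, 2359 members were higher and 1724 lower. These became 1348 and 3489 with equal sums, 1515 and 2822 with equal sums without the 100 most abundant models of either library, and 1696 and 2398 with an equal 75th percentile. The median log2 fold turned from 0.17 to -0.42, -0.25 and -0.13. A higher minimum gave fewer calls: 1349 and 657 (14.1% and 6.89% of the models) at 50 FPKM in either library, and 1289 and 671 at 10 FPKM in both. The counts were 838 and 481 for those with the name of 1 gene. The counts under both other pseudocounts, without a minimum, after centring and without small RNA models were within 1.5 times.

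Of 57 named models, 53 stayed on their side of 2-fold with equal sums and none that was called changed sign, and 57 did so with a pseudocount of 10. Of 38 list medians, 35 were positive as deposited and 16 with equal sums, so the sign of a list median near 0 depends on the scaling. No paired analysis was possible because each breed has 1 library, and for the same reason no replicate was left out. In the lowest of 4 classes of mean expression 29.3% of the members were higher and 29.9% lower, with 760 listed at 0 in Jersey and 655 in Cholistani, and in the highest class 18.05% and 3.64%. The part of depth in this was not tested.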

Other observations

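Some families of genes that share a symbol lay on the lower side, and a few of their genes are also in the lists above. The ubiquitin proteases (USP) had 18 members, 0 higher and 4 lower, with a median log2 fold of -0.38. The TRIM ubiquitin ligases had 17 members, 0 higher and 5 lower, with a median of -0.32. The MAP3K kinases had 7 members, 0 higher and 0 lower, with a median of -0.54, and 6 of these passed 2-fold lower with equal sums. Solute carriers (SLC) had 52 members, 7 higher and 8 lower, with a median of 0.06, and the RAB GTPases of vesicle traffic had 36 members, 2 higher and 1 lower, with a median of 0.05. These families are set beside 17.2% higher and 12.6% lower over all members.

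Models without a name made up 3189 of the members, and 33.5% of them were higher and 27.8% lower, at a median level of 21.4 FPKM in Jersey. The unnamed model with the largest fold among those above 0 in both, at chr5:104706129-104706681, had 0.945 FPKM in Jersey, 4.59 in Holstein and 273 in Cholistani. Another, at chr11:75633029-75633422, had 7.71, 16.96 and 943 FPKM. The lowest, at chr22:1552822-1675577, had 142, 172 and 4.67 FPKM. By chromosome, the median log2 fold of the nuclear members ran from -0.01 on chromosome 28 to 0.42 on chromosome 25. By listed span, the median was 0.35 in the shortest of 4 classes and -0.02 in the longest.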
